A study of Mus musculus with 4 samples.

Results

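Expression of 10 club and secretory airway genes was examined in smooth muscle cells sorted from mouse lungs after inactivation of *Tet3*, the gene of an enzyme that oxidizes 5-methylcytosine in DNA. The genes, chosen by symbol, were *Scgb1a1*, *Scgb3a1*, *Scgb3a2*, *Cyp2f2*, *Bpifa1*, *Bpifb1*, *Muc5b*, *Reg3g*, *Sec14l3* and *Gabrp*, and all 10 were found among the 21462 genes of the table. RNA sequencing covered 2 control and 2 Tet3 mutant libraries on the C57BL/6 background, each described by the study as an independent animal. Mutants carried floxed *Tet3*, recombined by a tamoxifen-inducible Cre recombinase under an α-smooth muscle actin promoter, which is active in vascular as well as airway smooth muscle. Controls, labelled WT, lacked the floxed allele. The study describes its controls in general as carrying the Cre transgene, a tdTomato reporter or both. Mutants carried the reporter too. Cells of both groups were sorted by it, so these controls must have carried it. The labels give no age or sex. Cells were depleted of CD45+ and Ter-119+ cells with beads and sorted as tdTomato+, with no step directed at an epithelial surface protein.

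Club cells are the main secretory cells of the small airways in mice. They release secretoglobins and antimicrobial proteins into the airway lining fluid, detoxify inhaled compounds with cytochrome P450 enzymes, and serve as progenitors that can renew themselves or give rise to ciliated and mucous goblet cells. Mucins such as MUC5B form the gel that cilia move, and in allergic airway disease goblet cells that produce MUC5AC become frequent. Smooth muscle cells are not a known source of these products. The study asked about changes in the airways of these mice and stained lung sections for club and goblet cell proteins.

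Library totals lay between 6805272 and 7164573 normalized counts, the unit of all values unless another is named. *Tet3* itself read 1847 and 1926 in control replicates 1 and 2, against 1534 and 1444 for Tet3 mutant replicates 1 and 2 (log2 fold change -0.34 ± 0.10, standard error; limma adjusted p = 0.681). Control replicate 2 stood apart in the X-linked transcript *Xist* (2, against 5214 to 6781 in the other libraries) and the Y-linked gene *Ddx3y* (774, against 0 in the others). Sex and anything else that set this library apart cannot be told apart, and values without control replicate 2 are therefore given. Smooth muscle markers were present, with a median of 115 to 210 normalized counts per kilobase of exon over 10 genes, but markers of other cells were present too. The median per kilobase was 404 to 831 over 10 alveolar type 2 genes, 283 to 310 over 8 endothelial genes and 70.6 to 146 over 9 haematopoietic genes. The 10 club and secretory genes had a median on the same scale of 276 and 56.8 in the controls and of 174 and 200 in the mutants. Values are given throughout in the order replicate 1, replicate 2. In bulk libraries such as these, fewer cells of a type and less RNA per cell cannot be told apart.

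Windows before RefSeq start sites on GRCm38.p6 were examined for 7 of the 10 genes, in 8 windows. *Scgb1a1*, *Scgb3a2* and *Muc5b* were left out of this search, so shares of the 8 windows do not cover them. The 250 bases before the start are shown for *Scgb3a1*, *Bpifb1* and *Reg3g*, each highest in control replicate 1 and lowest in control replicate 2. They are also shown for *Sec14l3*, which did not have this arrangement. Capitals mark matches, on either strand, to words of factors that act in airway epithelium (TGTTTAC or TGTTTGC for FOXA, CACTTGA or CACTCAA for NKX2-1, TTGCNNAA for C/EBP) and to the word TATAAA of the TATA box. Sequences read 5′ to 3′ in the direction of transcription.
Scgb3a1, chr11:49663345-49663594, plus strand: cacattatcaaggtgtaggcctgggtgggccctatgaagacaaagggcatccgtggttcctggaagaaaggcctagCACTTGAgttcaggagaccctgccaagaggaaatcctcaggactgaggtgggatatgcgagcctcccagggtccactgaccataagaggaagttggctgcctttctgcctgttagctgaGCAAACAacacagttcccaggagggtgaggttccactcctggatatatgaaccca
Bpifb1, chr2:154190568-154190817, plus strand: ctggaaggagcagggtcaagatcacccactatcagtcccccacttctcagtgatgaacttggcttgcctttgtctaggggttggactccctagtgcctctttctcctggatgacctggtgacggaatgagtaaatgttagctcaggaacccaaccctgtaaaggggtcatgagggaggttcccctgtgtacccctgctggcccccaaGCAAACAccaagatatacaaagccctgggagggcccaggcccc
Reg3g, chr6:78468875-78469124, minus strand: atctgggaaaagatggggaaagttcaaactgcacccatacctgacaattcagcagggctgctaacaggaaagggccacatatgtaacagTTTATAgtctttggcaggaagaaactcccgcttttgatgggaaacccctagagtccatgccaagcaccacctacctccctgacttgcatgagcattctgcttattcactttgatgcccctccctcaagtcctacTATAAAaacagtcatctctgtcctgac
Sec14l3, chr11:4064603-4064852, plus strand: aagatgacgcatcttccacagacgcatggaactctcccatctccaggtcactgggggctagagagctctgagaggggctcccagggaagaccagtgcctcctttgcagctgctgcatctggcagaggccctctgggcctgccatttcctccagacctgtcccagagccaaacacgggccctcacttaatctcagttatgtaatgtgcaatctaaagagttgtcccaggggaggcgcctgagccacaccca

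A FOXA word, read as GCAAACA on this strand, began 55 bases before the start of *Scgb3a1* and 43 bases before the upstream start of *Bpifb1*. That word occurred in 2 of the 8 windows and in 7.29% of 32851 windows over all genes. The NKX2-1 words occurred in 2 of 8 windows, at 174 bases before *Scgb3a1* and 192 bases before *Cyp2f2*, and in 5.10% of all windows. TATAAA was found 27 bases before *Reg3g* and 29 bases before *Bpifa1*, thus in 2 of 8 windows against 12.4% of all, and a second match before *Reg3g* began at 161 bases. The C/EBP word was in 0 of 8 windows and 9.56% of all. The windows of *Sec14l3*, *Gabrp* and the second start of *Bpifb1* held none of these words. *Gabrp* had the same arrangement over the libraries as *Scgb3a1*, *Bpifb1* and *Reg3g*, and a link between words and values was not tested. No matched words overlapped.

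The comparison of Tet3 mutant with control libraries gave no called difference in any of the 10 genes. All 10 exceeded the minimum mean of 10 and were tested with limma on log2(value + 1), and 0 had an adjusted p under 0.05, where 0% of the 16659 genes tested were called. At an unadjusted p under 0.05 the count was also 0, where 6.68% of the genes tested passed (638 higher and 474 lower in the mutants). The groups overlapped in each of the 10 genes, whereas they did not overlap in 39.0% of all genes. The median log2 fold change of the 10 genes was 0.46, with 9 above 0, beside a median of -0.01 over all genes tested, of which 49.0% were above 0. The sign depended on averaging logarithms, since in 3 of those 9 (*Bpifb1*, *Muc5b* and *Reg3g*) the mean of the untransformed values was lower in the mutants.

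The main feature of these genes was instead the distance between the controls. Control replicate 2 was the lowest of the 4 libraries in 9 of 10 genes, against 33.1% of all genes tested, and control replicate 1 the highest in 8 of 10, against 21.5%. The same 8 genes had both, so that the mutants lay between the controls, an arrangement seen in 10.3% of all genes. The difference between the controls exceeded the difference between group means in 10 of 10 genes on the log2 scale, and in 62.6% of all genes. The direction of the genotype difference accordingly followed the control that was kept. Without control replicate 2, 9 of the 10 log2 fold changes were below 0 and the median was -0.44. Without control replicate 1, 9 were above 0 and the median was 1.56. *Xist* and *Ddx3y*, and genes of other cell types as described for each list, also differed between the controls, and their part in this distance was not tested.

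**Figure D1:**
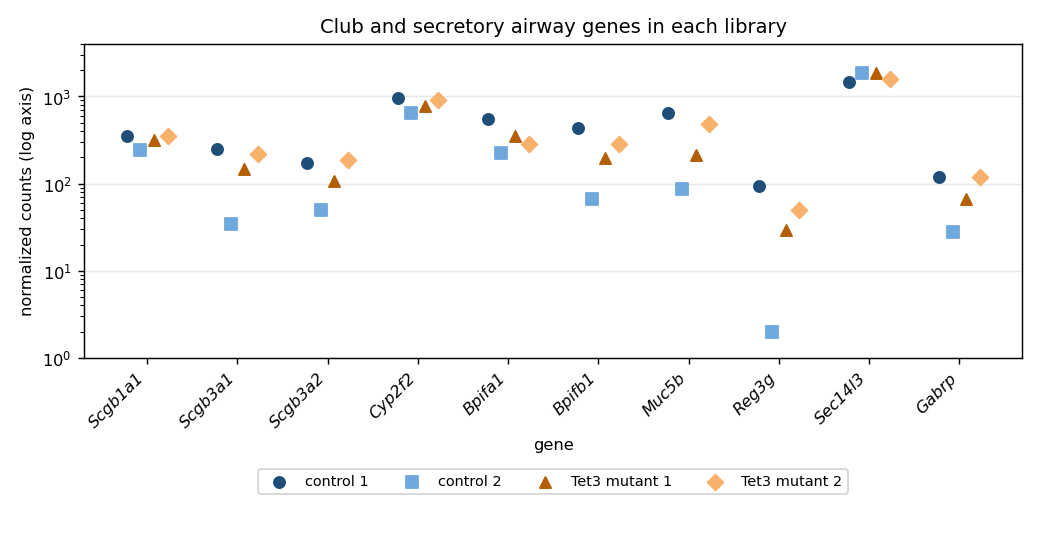
Normalized counts (log axis) of the 10 club and secretory airway genes, with 1 point per library and no averaging. Control 2 (light squares) is the lowest point for every gene but *Sec14l3*, and in 8 genes the mutant points (orange) lie between the 2 control points.

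Secretoglobins, small secreted proteins of the airway lining, showed this arrangement to different extents. *Scgb1a1* (ENSMUSG00000024653, chromosome 19, 9083636 to 9087958, minus strand), which encodes the club cell secretory protein CCSP, had 356 and 244 normalized counts in the controls, and the mutants 318 and 350. Both mutants were within the range of the controls, whose values differed 1.46-fold. The mean was 300.0 ± 79.2 in controls and 334.0 ± 22.6 in mutants (SD, n = 2 each), and the log2 fold change of 0.18 had a 95% interval from -0.38 to 0.74 (limma adjusted p = 0.830). *Scgb3a1* (ENSMUSG00000064057, chromosome 11, 49663610 to 49665118), a relative found in larger airways, had 247 and 34 in control mice compared with 148 and 220 in mutant mice. Here the controls lay 7.26-fold apart and the mutants 1.49-fold. Its log2 fold change of 0.96 had an interval from -1.40 to 3.32 (limma adjusted p = 0.781), and was -0.45 without control replicate 2. *Scgb3a2* (ENSMUSG00000038791, chromosome 18, 43764289 to 43767399), a further secretoglobin of club cells, had 172 and 50 in the control libraries against 107 and 189 in the mutant libraries. Tet3 mutant replicate 2 was the highest library for this gene, and control replicate 2 the lowest. The log2 fold change was 0.61, with an interval from -1.03 to 2.25 (limma adjusted p = 0.802), and -0.27 without control replicate 2.

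*Cyp2f2* (ENSMUSG00000052974, chromosome 7, 27119909 to 27133660) encodes a cytochrome P450 that activates naphthalene and makes mouse club cells sensitive to it. It had 959 and 643 normalized counts in the controls, and the mutants 775 and 905. As for *Scgb1a1*, the mutants lay between controls that were 1.49-fold apart, a narrow range beside that of *Scgb3a1*. The means were 801 ± 223 and 840 ± 91.9 (SD, n = 2 each), and the log2 fold change was 0.09, with an interval from -0.47 to 0.65 (limma adjusted p = 0.920). An exon of the antisense gene *Gm15883* overlaps *Cyp2f2*. Reads that overlapped several genes were excluded from counting, and use of strand is not given in the sources used here, so reads from the shared stretch may be missing from the value of *Cyp2f2*. The other 9 genes overlap no annotated gene.

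The BPI fold proteins are secreted by airway epithelium and bind lipids and bacterial products. *Bpifa1* (ENSMUSG00000027483, chromosome 2, 154142880 to 154149219) showed 550 and 226 normalized counts in control mice compared with 350 and 287 in mutant mice. It was the only one of the 10 genes with a fold change below 0, at -0.15 on the log2 scale (95% interval -1.25 to 0.95; limma adjusted p = 0.934). *Bpifb1* (ENSMUSG00000027485, chromosome 2, 154190818 to 154220369), its neighbour on the chromosome, had 430 and 67 in the control libraries against 199 and 287 in the mutant libraries. The controls of *Bpifb1* differed 6.42-fold, against 2.43-fold for *Bpifa1*, and the mutants 1.44-fold and 1.22-fold. Its log2 fold change was 0.49, with an interval from -1.73 to 2.70 (limma adjusted p = 0.890), while the means of the values were nearly equal, at 248.5 ± 257 in controls and 243 ± 62.2 in mutants (SD, n = 2 each). Without control replicate 2 the values were -0.79 for *Bpifa1* and -0.84 for *Bpifb1*.

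*Muc5b* (ENSMUSG00000066108, chromosome 7, 141839070 to 141873084), which encodes the gel-forming mucin needed for clearance in healthy airways, had 650 and 87 normalized counts in the controls, and the mutants 215 and 480. The mutants themselves were 2.23-fold apart, the widest gap between mutants among the 10 genes, and the controls 7.47-fold. The mean was lower in mutants, at 347.5 ± 187 against 368.5 ± 398 (SD, n = 2 each), whereas the log2 fold change was above 0, at 0.43, with a 95% interval from -2.09 to 2.95 (limma adjusted p = 0.918). It was -1.01 without control replicate 2. *Reg3g* (ENSMUSG00000030017, chromosome 6, 78466269 to 78468872), a secreted lectin that kills Gram-positive bacteria, had 94 and 2 in control mice compared with 29 and 50 in mutant mice. The value of 2 is under the floor of 3 counts taken as the limit of detection, so control replicate 1 was at least 31.3-fold higher than control replicate 2. Its log2 fold change of 1.21 had the widest interval of the 10 genes, from -2.93 to 5.36 (limma adjusted p = 0.848), and was -1.28 without control replicate 2. It also depended on the pseudocount, with 0.54 at a pseudocount of 8 and 1.33 at 0.5, and the mean was lower in mutants, at 39.5 ± 14.8 against 48.0 ± 65.1 (SD, n = 2 each).

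*Gabrp* (ENSMUSG00000020159, chromosome 11, 33550781 to 33578959), the pi subunit of GABA-A receptors, which is found in epithelia, had 120 and 28 normalized counts in the control libraries against 66 and 119 in the mutant libraries. Tet3 mutant replicate 2 was within 1 count of control replicate 1, and control replicate 2 was lowest. The log2 fold change was 0.60, with a 95% interval from -1.29 to 2.49 (limma adjusted p = 0.833). *Sec14l3* (ENSMUSG00000054986, chromosome 11, 4064841 to 4077736), a lipid-transfer protein of airway epithelium, was the exception to the pattern. It had 1463 and 1846 in the controls, and the mutants 1861 and 1607, with control replicate 1 lowest and Tet3 mutant replicate 1 highest. Its log2 fold change was 0.07, with the narrowest interval of the 10 genes, from -0.33 to 0.47 (limma adjusted p = 0.911), and was 0.24 without control replicate 2 and -0.09 without control replicate 1.

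**Figure D2:**
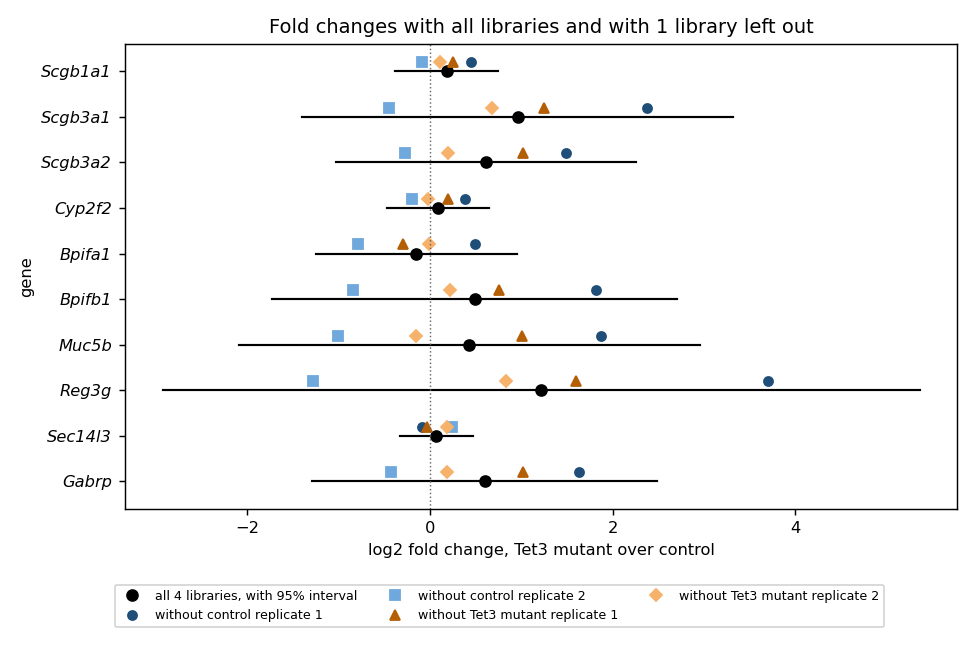
Log2 fold change of each gene, Tet3 mutant over control. Black points with bars give all 4 libraries with the 95% interval from limma, and coloured symbols give the value with 1 library left out. Every black bar crosses 0, and leaving out control replicate 2 (light squares) puts 9 of the 10 genes below 0.

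Levels are compared between genes per kilobase of exon, taken as the union of all annotated exons in GENCODE. On the mean over the 4 libraries, the order was *Scgb1a1* (666 normalized counts per kilobase), *Sec14l3* (609), *Cyp2f2* (405), *Scgb3a1* (271), *Bpifa1* (229), *Scgb3a2* (147), *Bpifb1* (67.9), *Gabrp* (24.7), *Muc5b* (23.9) and *Reg3g* (20.7). Neighbours in this order overlapped in their ranges over the libraries, except *Sec14l3* (526 to 668) and *Cyp2f2* (318 to 474). The more abundant genes were also those with smaller distances between the controls. *Scgb1a1*, *Sec14l3* and *Cyp2f2* had controls 1.26-fold to 1.49-fold apart, and the other 7 genes 2.43-fold or more.

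Summed over the 10 genes, 5041 and 3227 normalized counts were found in control mice compared with 4068 and 4494 in mutant mice, or 0.0720%, 0.0450%, 0.0590% and 0.0660% of the library totals. *Sec14l3* alone made up 1846 of the 3227 in control replicate 2, and without *Sec14l3*, left out after its values were seen, the sums were 3578, 1381, 2207 and 2887. Both versions placed control replicate 2 lowest and control replicate 1 highest.

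Other genes known from club cells did not form a uniform group. Of 26 such genes, 25 were in the table and 24 were tested. None was called, 1 was higher and 1 lower at an unadjusted p under 0.05, and 11 were above 0, with a median log2 fold change of -0.10 (-0.31 without control replicate 2). Groups did not overlap in 9 of the 24, near the 39.0% of all genes, and 7 of these were lower in the mutants, against 19.5%. Control replicate 2 was lowest for 9 genes and highest for another 9, against 33.1% and 33.2% of all genes tested. Those highest there included the aldehyde oxidase gene *Aox3*, with 1068 and 2326 normalized counts in the control libraries against 567 and 831 in the mutant libraries, which was named after its values were seen. The 3 genes of highest level on this list varied little, and which cells in these libraries gave their RNA was not tested. The flavin monooxygenase gene *Fmo2* had 3531, 3249, 3388 and 3108 in the order of controls and then mutants. For the retinal dehydrogenase gene *Aldh1a1* these values were 1799, 1668, 1879 and 1717. *Por*, the electron donor of cytochrome P450 enzymes, had 1541, 1607, 1443 and 1427. Their log2 fold changes were -0.06, 0.05 and -0.13 (limma adjusted p of 0.890, 0.908 and 0.727).

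Genes of goblet cells and mucous metaplasia were low in these libraries. Of 18 genes, 14 were in the table and 10 were tested, with 0 called, 2 lower and 0 higher at an unadjusted p under 0.05. The median log2 fold change was 0.14, and turned to -0.84 without control replicate 2. *Muc5ac* (ENSMUSG00000037974, chromosome 7, 141788972 to 141819231), which lies next to *Muc5b* and encodes the mucin of goblet cells, had 19 and 0 normalized counts in the controls, and the mutants 9 and 14. It overlapped between groups, at a log2 fold change of 1.45 ± 1.46 (standard error; limma adjusted p = 0.792), and the value was -0.71 without control replicate 2. As one control was at 0, it was set by the pseudocount, with 0.40 at 8 and 1.91 at 0.5. *Agr2*, a protein disulfide isomerase needed for mucin production, had 4, 2, 2 and 5 and was below the minimum, so a difference was not detectable at this depth. *Clca1*, which is secreted by goblet cells and was named after its values were seen, had 158 and 0 in control mice compared with 17 and 61 in mutant mice, the arrangement of *Muc5b*. The 3 genes of highest level on the list overlapped between groups. *St3gal4* had 619, 446, 627 and 615, *Creb3l1* 414, 587, 532 and 518, and *Retnla* 195, 190, 187 and 255, again controls first.

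Genes of defence at the airway lumen also fell into different arrangements. Of 15 genes 13 were tested, with 0 called, 1 higher and 2 lower at an unadjusted p under 0.05. The median log2 fold change was -0.30, and -0.97 at a minimum mean of 50, -0.61 and -0.54 without control replicates 2 and 1, and -0.10 and -0.62 without mutant replicates 1 and 2. Control replicate 2 was highest in 8 and lowest in 4 of the 13, against 33.2% and 33.1% of all genes. The polymeric immunoglobulin receptor *Pigr*, with 332 and 58 normalized counts in the control libraries against 159 and 193 in the mutant libraries, and lactoferrin *Ltf*, with 522 and 79 against 180 and 286, had the arrangement of *Bpifb1*. Both were named after their values were seen. The genes of highest level did not. *Chil1*, a chitinase-like secreted protein, had 1194 and 1701 in the controls, and the mutants 207 and 1089. *Lyz1* had 787, 1010, 250 and 830, and the water channel *Aqp5* 433, 970, 186 and 434. For all 3, control replicate 2 was highest and Tet3 mutant replicate 1 lowest, and limma adjusted p values were 0.681 to 0.692.

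The low value of club and secretory genes in control replicate 2 was not shared by epithelial genes at large. It was shared by haematopoietic genes, of which 9 of 9 were lowest there, against 33.1% of all genes. Of 18 genes of epithelium in general, all tested, control replicate 2 was highest in 15, against 33.2% of all genes. It was lowest in 2, *Cldn4* and *Prom1*, against 33.1%. The adhesion gene *Epcam* had 326 and 607 normalized counts in control mice compared with 265 and 449 in mutant mice, and the cadherin gene *Cdh1* 1431 and 2612 against 1157 and 1478. None of the 18 was called. The median log2 fold change of -0.69 rested on that library, as it was -0.08 without control replicate 2. It was -1.29 when control replicate 1 was left out and -0.42 when mutant replicate 1 was. Alveolar type 2 genes were highest in control replicate 2 in 10 of 10 cases and lowest in Tet3 mutant replicate 1 in 9, against 33.2% and 23.9% of all genes. Groups did not overlap in 9 of 10, all lower in the mutants, against 19.5% of all genes. Their median was -0.60, and -0.33 without control replicate 2 and -0.39 without mutant replicate 1. The surfactant protein gene *Sftpa1* had 2234 and 2881 in the control libraries against 1667 and 2065 in the mutant libraries (limma adjusted p = 0.681).

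Ciliated cell genes, from the other main cell of the airway lining, differed from both. Of 16 genes, 15 were tested. In all 15, each mutant exceeded each control, a direction seen in 19.6% of all genes, with a median log2 fold change of 0.78. The gene not tested, *Mcidas*, was below the minimum and went the other way, with 4 and 4 in the controls and 0 and 0 in the mutants. None was called, and 8 had an unadjusted limma p under 0.05, where 638 of all 16659 genes tested passed in that direction. *Foxj1*, the transcription factor of motile cilia, had 249 and 301 in the controls, and the mutants 535 and 431, and the dynein gene *Dnah5* 793 and 746 against 1691 and 1033. Basal cell genes gave 0 called of 6 tested, and their keratin *Krt5*, with 7, 13, 2 and 15 normalized counts, was below the minimum.

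**Figure D3:**
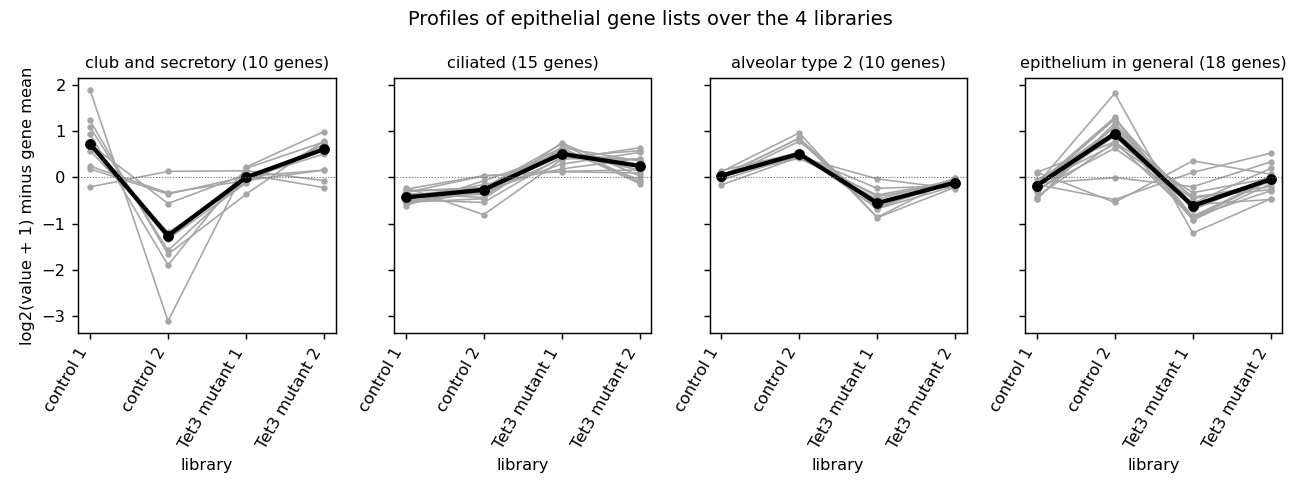
Log2(value + 1) of each gene minus its own mean over the 4 libraries, for 4 lists of epithelial genes with a mean of at least 10. Grey lines are genes and the black line their median, and libraries on the horizontal axis have no order. Club and secretory genes dip in control 2, where general epithelial and alveolar type 2 genes peak, and ciliated genes are higher in both mutants.

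Within each library, the sum over the 10 club and secretory genes was set against the sums of these lists. Relative to alveolar type 2 genes the ratio was 0.290 and 0.124 in control mice compared with 0.337 and 0.287 in mutant mice, and control replicate 2 was again the lowest. Relative to genes of epithelium in general it was 0.841, 0.278, 0.874 and 0.700. Relative to ciliated genes it was 1.51 and 0.882 in the control libraries against 0.636 and 0.973 in the mutant libraries, so that the groups overlapped through control replicate 2. Scaling each library to the same sum of general epithelial genes left 0 of 10 called. It moved the median log2 fold change of all genes tested from -0.01 to 0.60, and that of the 10 genes from 0.46 to 1.06, a similar shift.

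**Figure D4:**
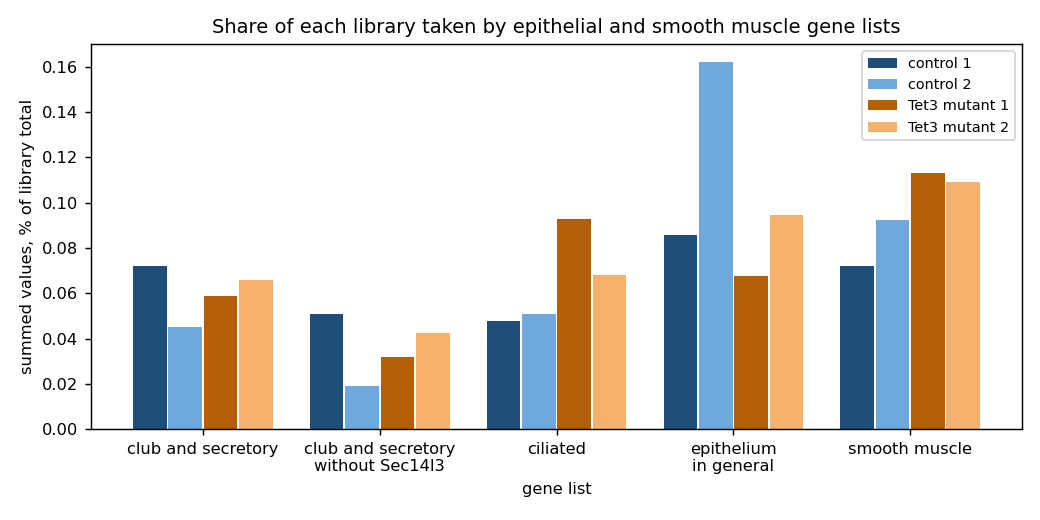
Summed normalized counts of 4 gene lists, and of the first without *Sec14l3*, as a percent of each library's total. The club and secretory share is lowest in control 2 (0.0450%), where that of general epithelial genes is highest (0.162%).

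Transcription factors that act in airway secretory cells went with the general epithelial genes, although the lists are not separate, since *Elf3* and *Grhl2* are on both. Of 18 tested, control replicate 2 was highest in 16, against 33.2% of all genes. The groups did not overlap in 10, against 39.0% of all genes, and 9 of these were lower in the mutants, against 19.5%. The median log2 fold change was -0.93 and 0 were called. At an unadjusted limma p under 0.05, 4 were lower, as were 474 of all 16659 genes tested. The median was -0.31 without control replicate 2, -1.58 without control replicate 1 and -0.51 without mutant replicate 1. *Nkx2-1*, a lung epithelial factor needed for secretoglobin and surfactant genes, had 685 and 1501 normalized counts in the controls, and the mutants 378 and 540 (log2 fold change -1.16 ± 0.40, standard error; limma adjusted p = 0.681). *Cebpa*, another such factor, had 805, 1424, 525 and 813. Thus 16 of the 18 factor genes were highest in the library in which 9 of the 10 secretory genes were lowest. Alveolar type 2 genes were highest there too, in 10 of 10 cases, and which cells gave the factor RNA was not tested. Exceptions among the factors were *Hey1*, lowest in control replicate 2 (395, 228, 433 and 330), and *Sox2* (51, 55, 80 and 67), with each mutant above each control. The factors of highest level, *Notch2* (3316, 3519, 3308 and 3136) and *Foxp1* (1744, 2130, 1986 and 1854), are expressed in many cell types.

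Genes whose profile over the 4 libraries was nearest to the median profile of the 10 genes were sought among all genes with a mean of at least 50. Likeness was the Euclidean distance between log2 profiles centred on their own means, over only 4 libraries. The nearest were the protocadherin gene *Pcdhb7* (distance 0.281; 186, 53, 126 and 154 normalized counts), the cytochrome P450 gene *Cyp2a5* (0.297; 139, 33, 65 and 127), the long noncoding RNA *Gm48662* (0.336; 95, 28, 64 and 77), *Negr1* (0.342; 323, 100, 263 and 316) and the matrix gene *Tnc* (0.345; 1977, 676, 1428 and 1900). Of these, *Cyp2a5* is also on the list of club cell genes, and reads that align equally to the near-identical *Cyp2a4* were excluded from its value. Among the 10 genes themselves, *Gabrp* (0.179) and *Scgb3a2* (0.219) were nearest to their median profile, and *Reg3g* (2.22) and *Sec14l3* (1.81) farthest.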

How the data were processed

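RNA of sorted lung smooth muscle cells from 2 control and 2 Tet3 mutant mice was ribodepleted and sequenced as stranded libraries. Per the labels and methods, the authors trimmed reads (Trimmomatic 0.36), aligned them to mm10 (GRCm38) with STAR 2.6.0c and counted unique reads over exons with featureCounts (Subread 1.6.0). The deposited values are a score: counts per gene that the authors scaled with DESeq2 and rounded to whole numbers, so raw counts and their exact depth were not used here. Scaling hides differences in depth. The floor of 3 counts reflects counting error at best, since PCR copies were not marked by molecular identifiers. The intervals come from the limma fit and reflect the spread between libraries.

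Groups and replicate numbers follow the sample titles, and p-values measure the spread between these animals. Log2(value + 1) was fitted with limma 3.58.1 in R 4.3.3 (mean-variance trend, genotype as the factor) over 16659 genes whose mean reached 10 (two-sided test; Benjamini-Hochberg over all genes; threshold 0.05). The study's own model needs raw counts. The fit was tested on simulated data with a single spread for all genes, smaller than that between the controls in most of the 10 genes. That test cannot show how the fit does at the spread seen here. An exact permutation test of 2 against 2 libraries cannot go below p = 0.333. Exon lengths came from GENCODE vM21 of the same build (99.8% of genes matched, and coordinates were the same for all 10 genes). TMM factors were computed from their published definition.

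The 10 genes and the 18 gene lists were chosen with earlier results of these data known. Named besides the 10 were *Tet3*, *Muc5ac*, *Agr2*, the 3 genes of highest mean per list as space allowed and the 5 nearest profiles. Genes said to be named after their values were seen were named too. Further such genes are *Epcam*, *Foxj1*, *Nkx2-1*, *Krt5*, *Cldn4*, *Xist*, *Ddx3y*, *Gm15883*, *Hey1*, *Sox2*, *Mcidas*, *Elf3* and *Grhl2*.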

Additional observations from a re-analysis of the deposited data

How the results depend on the processing

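No gene was called, over all genes or among the 10, with a pseudocount of 0.5 or 8, with a minimum mean of 1 or 50, with none (the same genes as at 1, where the table starts), after scaling by TMM or to equal totals, or with the replicate block. Dropping limma's mean-variance trend gave 1 call over all genes, outside every list used here, and the cause was not tested. Among the 10 genes, the smallest limma adjusted p over all settings was 0.205. Of 99 values of single genes under settings that keep all libraries, 1 changed direction, *Bpifa1* at equal sums of general epithelial genes (0.45), a scaling that raised the median of all genes to 0.60 and put 91.5% of them above 0. Leaving out 1 library at a time left 0 called (273 to 3366 at an unadjusted p under 0.05, against 1112 with all libraries), where the lone sample of a group was assumed to vary like the other group, but each of the 10 genes changed direction at least once. The median of the 10 log2 fold changes then ranged from -0.44 to 1.56. Single genes ranged from -0.09 to 0.45 (*Scgb1a1*), -0.45 to 2.37 (*Scgb3a1*), -0.27 to 1.49 (*Scgb3a2*), -0.20 to 0.38 (*Cyp2f2*), -0.79 to 0.49 (*Bpifa1*), -0.84 to 1.82 (*Bpifb1*), -1.01 to 1.87 (*Muc5b*), -1.28 to 3.70 (*Reg3g*), -0.09 to 0.24 (*Sec14l3*), -0.43 to 1.63 (*Gabrp*) and -0.71 to 3.61 (*Muc5ac*).

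Control and mutant samples share replicate numbers, but deviations of same-numbered samples correlated by only 0.134 (Pearson) and 0.123 (Spearman) across 16659 genes, over 2 pairs, so the numbers were not taken to pair samples. With the replicate block 0 of the 10 genes were called, and their median log2 fold change was 0.46. At this number of libraries the intervals for 6 of the 10 genes reached changes of 2-fold or more in both directions.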

Other observations

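Relatives of the 10 genes gave further values. Of the 12 tested genes of the Cyp2 family, 0 were called and 8 were above 0. *Cyp2s1* had 449 and 509 normalized counts in the controls, and the mutants 797 and 692, a log2 fold change of 0.63 ± 0.14 (standard error) at an unadjusted limma p of 0.00541 and an adjusted p of 0.681. *Cyp2b10* had 305, 584, 264 and 363, controls first. In the SEC14-like family, *Sec14l4* had 545 and 1398 in control mice compared with 301 and 485 in mutant mice, and *Sec14l2* 114, 392, 85 and 177. Of 6 tested subunits of GABA-A receptors, *Gabra3* had 399 and 252 in the control libraries against 622 and 567 in the mutant libraries (log2 fold change 0.90 ± 0.24; limma adjusted p = 0.681). *Scgb1c1*, the remaining secretoglobin, had 15, 54, 2 and 14, and *Bpifb5* had 35, 186, 15 and 46, both highest in control replicate 2. The mucins *Muc1*, *Muc4* and *Muc16* had log2 fold changes of -0.87, -0.54 and -1.15 (limma adjusted p of 0.681, 0.681 and 0.694), and *Muc16* had 237 in control replicate 1 and 49 to 58 in the other libraries. Over these families, the median log2 fold change was 0.39 for 4 secretoglobins, -0.02 for 6 BPI fold genes, -0.71 for 6 mucins, 0.10 for the Cyp2 genes, -0.15 for 5 SEC14-like genes and 0.52 for the GABA-A subunits, *Reg3g* being the 1 Reg gene in the table, and 0 were called. Without control replicate 2 several of these turned, to -0.36 for secretoglobins, -0.12 for Cyp2 genes, 0.04 for SEC14-like genes and -0.14 for GABA-A subunits, and the BPI fold and mucin medians were -0.17 and -0.86. The GABA-A median was -0.58 at a minimum mean of 1, and the SEC14-like median -0.46 at 50.

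Lists of other cells in the sort gave 0 called as well. Smooth muscle genes were above 0 in 10 of 10 cases (median 0.46), haematopoietic genes in 8 of 9 (0.78) and endothelial genes in 8 of 8 (0.09). Without control replicate 2 these medians were 0.73, 0.11 and 0.00. Haematopoietic genes were lowest in control replicate 2 in 9 of 9 cases and endothelial genes in 7 of 8, against 33.1% of all genes. The same library was lowest in 9 of the 10 club and secretory genes. The leukocyte gene *Ptprc* read 2136 and 1364 in controls, against 2674 and 1885 in mutants, and *Myh11*, the smooth muscle myosin, 1330 and 2300 against 2473 and 2249.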
